A study of Mus musculus with 6 samples.

Results

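The circadian clock and PAR bZIP genes described here were 10 named genes, taken by symbol from the 55487 genes of the deposited liver tables: the activators Arntl, Clock and Npas2, the repressors Per1, Per2, Per3, Cry1 and Nr1d1, and the output factors Dbp and Hlf. Gene expression was measured by poly(A) RNA sequencing in the livers of 6 male mice aged 8 weeks. SCADD animals (3 livers) were of the substrain BALB_cBYJ and were deficient in short-chain acyl-CoA dehydrogenase, which takes the first step in the mitochondrial breakdown of short fatty acids. WT animals (3 livers) were of the substrain BALB_cJ. Both groups ate standard chow freely under 12 h of light and 12 h of dark. Genotype and substrain coincide, so the enzyme defect and other substrain differences cannot be told apart. The time of day at which each liver was taken is not given in the sources used here, which bears on every value below because these transcripts cycle daily.

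The mammalian clock is a feedback loop of transcription. ARNTL (also called BMAL1) pairs with CLOCK, or with its relative NPAS2, and drives genes that carry E-box elements, among them the Per and Cry genes, whose protein products return to the nucleus and shut the pair down. A second loop uses the nuclear receptor NR1D1 (REV-ERB alpha), an E-box target that represses Arntl, Npas2 and Cry1 through sites shared with the activator RORA. DBP and HLF, with TEF, are the PAR bZIP factors, which carry the rhythm to D-box elements in genes of hepatic detoxification and heme synthesis. In mouse liver the Arntl, Npas2 and Clock transcripts are known to be high around the end of the night and the Cry1 transcript in the later night, and Nr1d1, Dbp, Hlf and the Per transcripts during the day and around dusk.

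Promoter sequences are shown for 5 members to make these elements visible: Arntl for the element bound by NR1D1 and RORA, Per1 and Cry1 for the E-box, Per3 for the D-box, and Hlf because it was the member that passed the test below. Sequences are RefSeq windows on GRCm38.p6, 250 bases before to 50 after an annotated start, 5′ to 3′ on the gene's strand. Capitals mark matches on either strand to the E-box CACGTG, the D-box TTATGTAA or TTACGTAA, and the hexamer AGGTCA.
Arntl (chr7:113207261-113207560, plus strand): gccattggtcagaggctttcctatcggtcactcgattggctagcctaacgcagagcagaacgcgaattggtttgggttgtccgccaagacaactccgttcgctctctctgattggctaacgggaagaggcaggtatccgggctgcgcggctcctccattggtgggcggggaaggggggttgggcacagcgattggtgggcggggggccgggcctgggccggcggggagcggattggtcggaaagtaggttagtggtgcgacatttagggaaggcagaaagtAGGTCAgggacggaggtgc
Per1 (chr11:69098699-69098998, plus strand): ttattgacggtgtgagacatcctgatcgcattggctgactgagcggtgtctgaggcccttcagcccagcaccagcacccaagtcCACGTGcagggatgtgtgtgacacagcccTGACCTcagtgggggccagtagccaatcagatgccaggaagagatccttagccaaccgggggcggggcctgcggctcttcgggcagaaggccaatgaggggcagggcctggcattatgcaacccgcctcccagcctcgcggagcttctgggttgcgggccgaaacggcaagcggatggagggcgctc
Per3 (chr4:151044616-151044915, minus strand): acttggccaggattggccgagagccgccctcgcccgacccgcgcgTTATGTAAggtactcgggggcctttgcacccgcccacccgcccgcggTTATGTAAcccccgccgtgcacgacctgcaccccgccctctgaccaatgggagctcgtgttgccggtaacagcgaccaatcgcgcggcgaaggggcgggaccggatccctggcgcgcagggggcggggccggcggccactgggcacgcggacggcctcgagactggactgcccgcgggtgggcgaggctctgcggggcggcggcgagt
Cry1 (chr10:85185005-85185304, minus strand): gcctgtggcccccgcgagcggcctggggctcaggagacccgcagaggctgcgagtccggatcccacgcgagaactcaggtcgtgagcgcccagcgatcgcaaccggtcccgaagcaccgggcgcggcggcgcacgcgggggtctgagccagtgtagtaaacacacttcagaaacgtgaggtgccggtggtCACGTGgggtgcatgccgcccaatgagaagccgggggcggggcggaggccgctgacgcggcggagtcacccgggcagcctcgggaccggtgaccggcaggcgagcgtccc
Hlf (chr11:90390868-90391167, minus strand): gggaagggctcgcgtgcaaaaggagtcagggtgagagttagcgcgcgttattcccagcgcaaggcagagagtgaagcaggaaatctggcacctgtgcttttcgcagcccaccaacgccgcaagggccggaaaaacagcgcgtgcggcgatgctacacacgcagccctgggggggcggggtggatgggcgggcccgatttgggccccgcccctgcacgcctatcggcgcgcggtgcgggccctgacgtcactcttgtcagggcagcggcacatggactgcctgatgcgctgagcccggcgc
The table held 13 windows for 9 of the 10 members. The E-box was found in 2 of the 13 windows, the first of Per1 and that of Cry1, and in 7.15% of all 32851 windows of this length. The D-box occurred 2 times in the Per3 window and in 0 of the other members' windows, against 1.06% of all windows with at least 1 match. The hexamer was found in 3 windows, those of Arntl, Clock and Per1, and in 16.3% of all windows. The 3 motifs did not overlap each other in the windows shown, and a match is a description of these letters only.

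Reads counted in genes totalled 16948986 to 23912744 in SCADD libraries and 23991104 to 27148756 in WT libraries, and unmapped reads made up 25.1% to 36.6% in SCADD and 13.6% to 16.4% in WT libraries. SCADD replicate 3 had the fewest gene reads and the highest unmapped share. Acads, the gene of the deficient enzyme, was at 96.9 to 104 CPM (counts relative to the library total, scaled by TMM) in SCADD and 166 to 196 CPM in WT livers (edgeR adjusted p = 0.00407), in the direction of the labels. Hepatocyte transcripts were abundant, with Alb, the plasma albumin gene, at 79512 to 117254 CPM in SCADD and 86274 to 135160 CPM in WT livers, and 0 of 5 hepatocyte markers passed the test by edgeR (1 had an unadjusted p under 0.05; DESeq2 also called 0). Hnf4a (431 to 573 against 331 to 410 CPM) and Cyp2e1 (4125 to 5498 against 3539 to 3914 CPM) were higher in each SCADD liver than in any WT liver. Alb, Apoa1 and Ttr overlapped, and 28.0% of all tested genes did not. Without SCADD replicate 3, Hnf4a was called higher by edgeR (adjusted p = 0.0307). Of 30 markers of endothelial, Kupffer, stellate, bile duct, lymphoid and red blood cells, 24 were tested, 1 rose (Alas2, an erythroid enzyme of heme synthesis) and 1 fell (Lyve1, an endothelial receptor). That is 8.33% called, near the 7.02% of all tested genes. Their summed level was 969 to 2409 CPM in SCADD and 1303 to 1645 CPM in WT livers, and Cd8a, a T cell marker, had 0 counts in SCADD replicates 2 and 3 and in WT replicate 3. In whole tissue, fewer cells of a type and less RNA per cell cannot be told apart. Of these 6 lists, endothelial markers summed to 90.8 to 150 CPM in SCADD and 158 to 166 CPM in WT livers. Bile duct markers summed to 28.8 to 41.1 CPM in SCADD and 44.6 to 52.0 CPM in WT livers. Neither of these sums overlapped between the groups, while those of the other 4 lists did. Clec4g made up most of the endothelial sum, at 53.7 to 104 CPM in SCADD and 112 to 116 CPM in WT livers. Pecam1 and Lyve1 were also lower in each SCADD liver, while Stab2 and Kdr overlapped (log2 fold changes 0.28 and -0.074). Spp1 made up most of the bile duct sum, at 27.8 to 39.4 CPM in SCADD and 42.0 to 48.1 CPM in WT livers. At low levels, Krt19 (0.047 to 0.24 against 0.44 to 1.12 CPM) and Epcam (0.33 to 0.68 against 1.01 to 1.37 CPM) were also lower in each SCADD liver. Krt7 and Sox9 overlapped. The part of these depth, mapping and cell marker values in the results below was not tested.

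Hlf was the 1 clock or PAR bZIP member that passed the test, and it was higher in SCADD livers. Of the 10 members, 9 had enough reads to be tested, and 1 rose and 0 fell by edgeR's quasi-likelihood test at an adjusted p under 0.05, a share of 11.1% beside 7.02% of all 13498 tested genes called in either direction (4.22% higher, 2.80% lower). At an unadjusted p under 0.05 there were 2 members, Hlf and Cry1, beside 22.7% of all tested genes. DESeq2 and limma-voom likewise called 1 member higher and 0 lower, with 8.42% and 6.83% of the genes they tested called. A gap between every SCADD and every WT liver was seen for 1 of 9 tested members, Hlf, beside 28.0% of all tested genes (14.9% with SCADD higher and 13.1% with SCADD lower). The median log2 fold change of the 9 was 0.27, beside -0.00079 over all tested genes, with 6 of 9 positive and 49.9% of all tested genes positive.

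**Figure D1:**
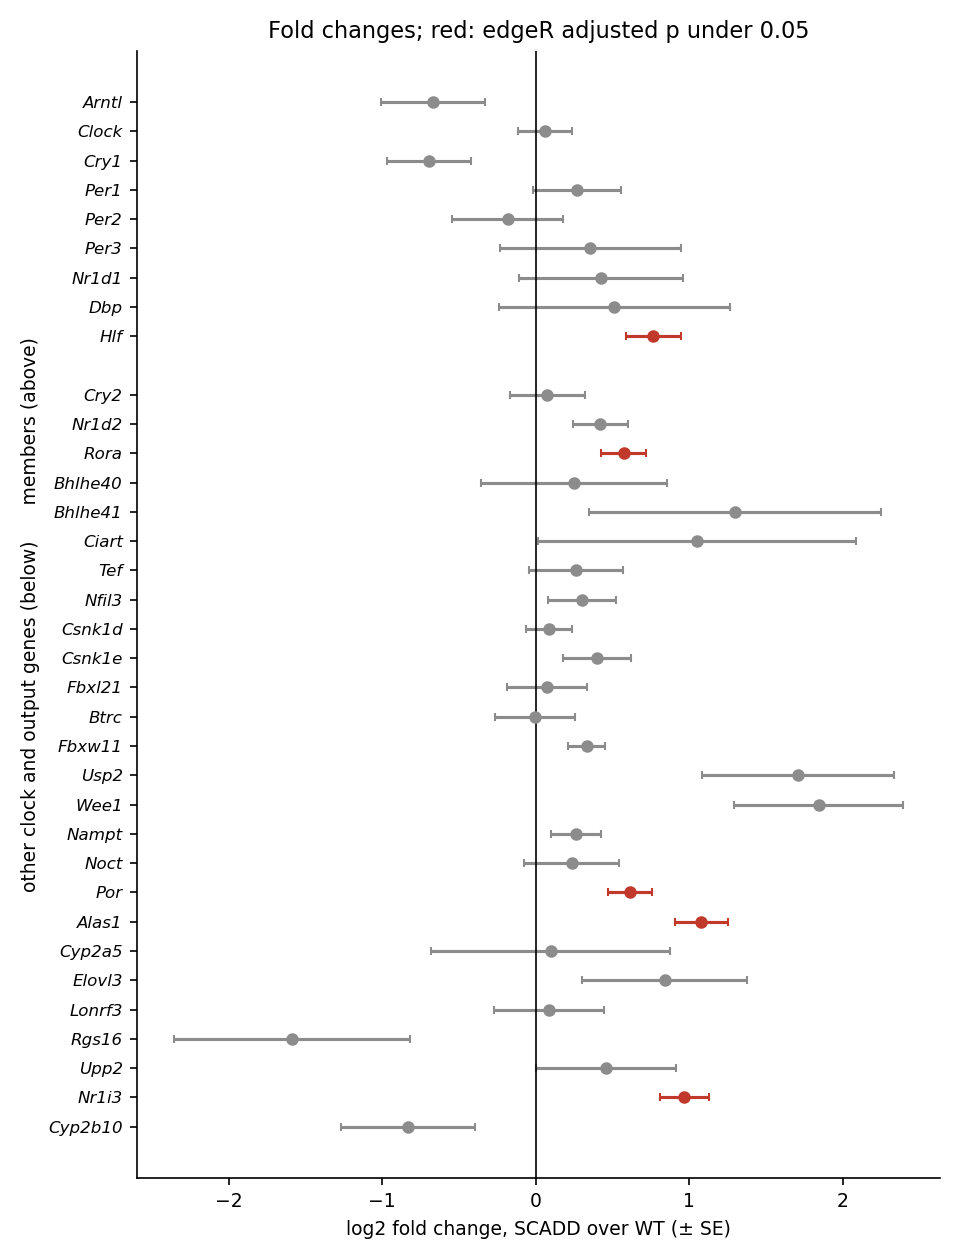
Log2 fold change, SCADD over WT, with its SE, for the 9 tested members above and other clock and output genes below; red points passed edgeR's test at an adjusted p under 0.05. Hlf alone among the members is red, at 0.77, and Rora, Por, Alas1 and Nr1i3 are red among the others, while Dbp, Bhlhe41 and Ciart have wide error bars.

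Per length, the members ranged over more than an order of magnitude. In TPM, averaged over the 6 libraries, Dbp was highest at 19.3, followed by Clock at 8.95, Nr1d1 at 8.78 and Hlf at 4.93, then Arntl at 1.63, Per1 at 1.54, Cry1 at 1.07, Per2 at 1.03, Per3 at 0.877 and Npas2 at 0.112 TPM. The ranges over single livers overlapped between neighbours in this order for every pair except Hlf and Arntl, with 3.22 to 9.04 TPM for Hlf and 0.79 to 2.83 TPM for Arntl. Dbp alone ran over 5.44 to 42.78 TPM, so its place at the top is that of its mean and not of every liver.

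Among the activators, Arntl (ENSMUSG00000055116, chromosome 7, 113207465 to 113314126, GRCm38), the obligate partner in the activating pair, had 4.48, 1.93 and 4.71 CPM in SCADD replicates 1, 2 and 3, and 7.26, 6.51 and 3.86 CPM in WT replicates 1, 2 and 3. SCADD replicate 2 was the lowest liver, WT replicates 1 and 2 were the highest, and the groups overlapped because WT replicate 3 lay below 2 SCADD livers. The means were 3.71 ± 1.54 CPM in SCADD and 5.88 ± 1.79 CPM in WT (SD, n = 3 each), a fold change of -0.67 on the log2 scale (SE 0.34; edgeR adjusted p = 0.278). Without a filter on low counts Arntl was called lower by edgeR, at an adjusted p of 0.0389 and the same log2 fold change, with 6.90% of the genes then tested called.

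Clock (ENSMUSG00000029238, chromosome 5, 76209868 to 76304792), the bHLH-PAS partner of ARNTL, was the steadiest tested member over the livers, with a highest liver only 1.57-fold above the lowest. It had 97.0, 61.7 and 86.0 CPM in SCADD replicates 1, 2 and 3, against 77.4, 87.1 and 69.7 CPM in WT replicates 1, 2 and 3. The SCADD livers held both the highest and the lowest value. Its fold change was 0.063 on the log2 scale (SE 0.18; edgeR adjusted p = 0.875), and the sign turned without WT replicate 3 (-0.013) or SCADD replicate 1 (-0.098).

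Npas2 (ENSMUSG00000026077, chromosome 1, 39193731 to 39363236), the relative of Clock, was near the lower limit of detection and was not tested. It had 10, 5 and 1 counts in SCADD replicates 1, 2 and 3, and 16, 7 and 7 counts in WT replicates 1, 2 and 3. The SCADD sum of 16 counts and the WT sum of 30 counts come from unequal depths, and the per-library levels overlapped, at 0.062 to 0.41 CPM in SCADD and 0.26 to 0.58 CPM in WT livers. At this depth no difference in Npas2 was detectable.

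The 3 Per genes, which encode the repressors that carry the negative limb, did not pass the test, and livers of both groups were among the highest and the lowest. Per1 (ENSMUSG00000020893, chromosome 11, 69095217 to 69109960), which also answers to glucocorticoids, had 9.01, 8.30 and 6.69 CPM in SCADD replicates 1, 2 and 3, and 3.61, 7.51 and 8.89 CPM in WT replicates 1, 2 and 3. WT replicate 1 was the one low liver. The log2 fold change of Per1 was 0.27 (SE 0.29, edgeR adjusted p = 0.637), and it was -0.042 without WT replicate 1.

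Per2 (ENSMUSG00000055866, chromosome 1, 91415982 to 91459324) had 4.77, 7.82 and 4.90 CPM in SCADD replicates 1, 2 and 3, and 4.23, 4.94 and 10.7 CPM in WT replicates 1, 2 and 3. Each group held 1 high liver, SCADD replicate 2 and WT replicate 3. The fold change was -0.18 on the log2 scale (SE 0.36; edgeR adjusted p = 0.819), and it turned to 0.35 without WT replicate 3. Per3 (ENSMUSG00000028957, chromosome 4, 151003652 to 151044665), a PER protein that is less required for rhythm, had 2.28, 7.21 and 4.52 CPM in SCADD replicates 1, 2 and 3, and 2.82, 1.57 and 6.45 CPM in WT replicates 1, 2 and 3. The same 2 livers were the highest again. Its fold change was 0.35 on the log2 scale (SE 0.59; edgeR adjusted p = 0.786), and it was -0.14 without SCADD replicate 2.

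Cry1 (ENSMUSG00000020038, chromosome 10, 85131700 to 85185064), the strong repressor of the ARNTL and CLOCK pair, was even across the SCADD livers in CPM, at 2.49, 2.50 and 2.29 CPM in replicates 1, 2 and 3. The WT livers were at 5.17, 4.19 and 2.44 CPM in replicates 1, 2 and 3. WT replicates 1 and 2 stood above every SCADD liver, and WT replicate 3 fell within the SCADD range. The means were 2.43 ± 0.115 CPM in SCADD and 3.93 ± 1.38 CPM in WT (SD, n = 3 each), with a fold change of -0.69 on the log2 scale (SE 0.27; edgeR adjusted p = 0.160). Its log2 fold change kept its sign under all 16 alternatives, at -0.95 to -0.45.

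Nr1d1 (ENSMUSG00000020889, chromosome 11, 98767932 to 98775333), the heme-binding repressor of the second loop, had 20.7, 42.9 and 14.2 CPM in SCADD replicates 1, 2 and 3, and 11.7, 15.2 and 31.1 CPM in WT replicates 1, 2 and 3. SCADD replicate 2 and WT replicate 3 were the highest livers. The fold change was 0.43 on the log2 scale (SE 0.54; edgeR adjusted p = 0.704), and it was -0.15 without SCADD replicate 2.

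**Figure D2:**
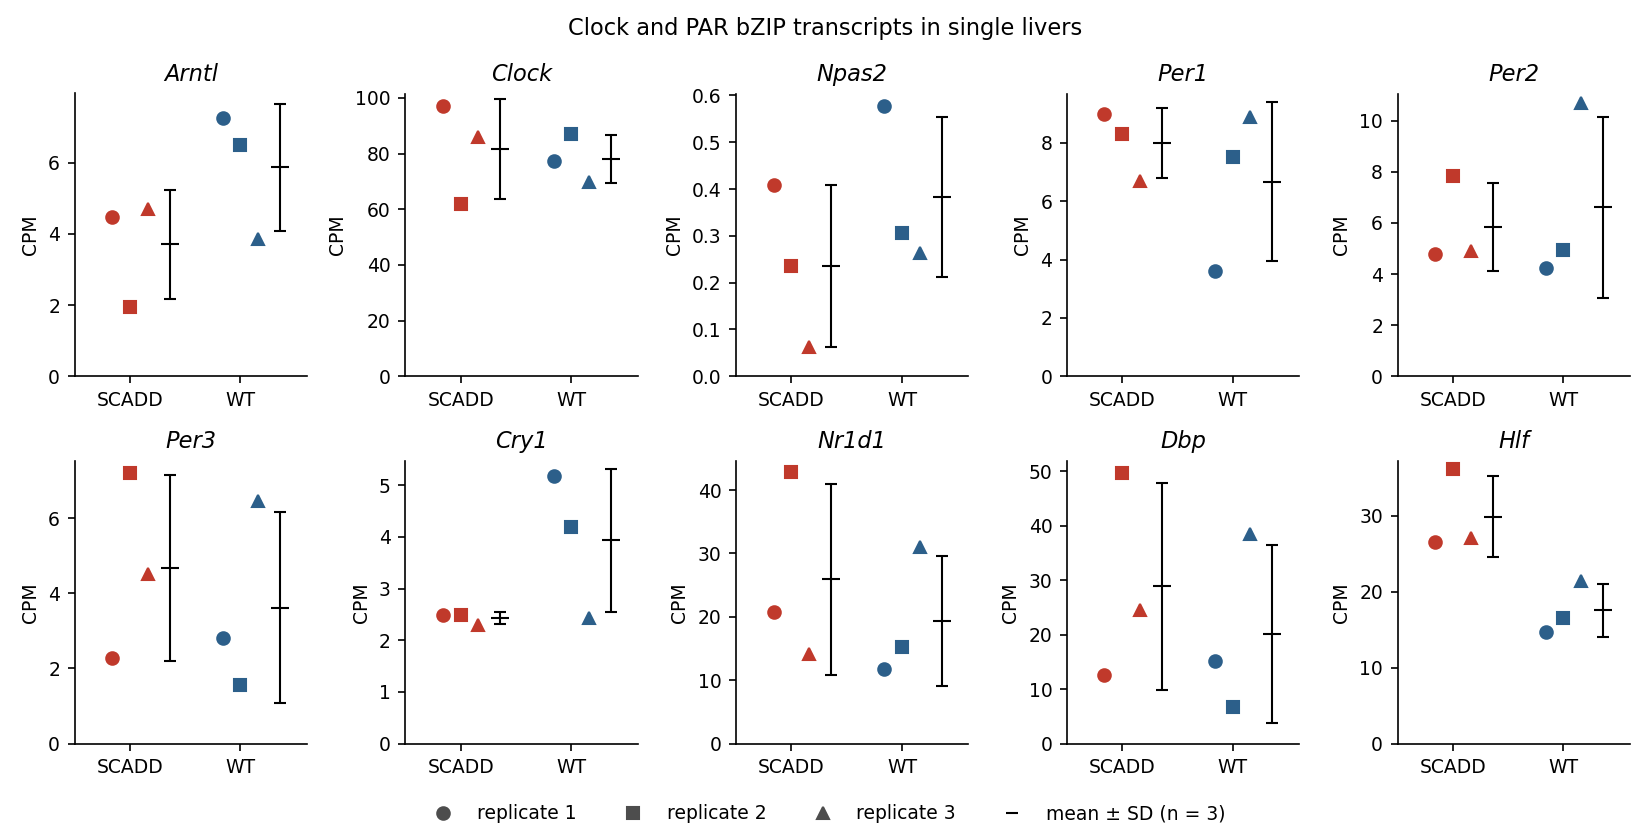
CPM of each member in single livers, SCADD left and WT right in each panel, with a marker shape for each replicate number and the group mean ± SD beside it; the vertical scale differs between panels. The SCADD replicate 2 square and the WT replicate 3 triangle are high for Dbp (49.6 and 38.4 CPM), Nr1d1 (42.9 and 31.1 CPM) and Per3 (7.21 and 6.45 CPM), and the groups are apart for Hlf alone.

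Of the PAR bZIP genes, Dbp (ENSMUSG00000059824, chromosome 7, 45705088 to 45710203), the output factor named for the D-site of the albumin promoter, varied most over the livers among the tested members. It had 12.5, 49.6 and 24.5 CPM in SCADD replicates 1, 2 and 3, against 15.3, 6.81 and 38.4 CPM in WT replicates 1, 2 and 3. The highest liver stood 7.28-fold above the lowest, and the spread within a group was 3.96-fold in SCADD and 5.64-fold in WT. Beside a mean of 28.9 ± 18.9 CPM in SCADD and 20.2 ± 16.4 CPM in WT (SD, n = 3 each), the log2 fold change of 0.51 had an SE of 0.75 (edgeR adjusted p = 0.752), and it was -0.15 without SCADD replicate 2.

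Hlf (ENSMUSG00000003949, chromosome 11, 90336536 to 90390895), the related PAR bZIP factor, had 26.5, 36.1 and 27.1 CPM in SCADD replicates 1, 2 and 3, and 14.7, 16.6 and 21.4 CPM in WT replicates 1, 2 and 3. Each SCADD liver was above each WT liver, and SCADD replicate 2 was again the highest of its group and WT replicate 3 the highest of the other. The means were 29.9 ± 5.39 CPM in SCADD and 17.6 ± 3.46 CPM in WT (SD, n = 3 each), a fold change of 0.77 on the log2 scale (SE 0.18; edgeR adjusted p = 0.0269) or 1.70-fold. In TPM the gap was narrow, with 5.79, 9.04 and 4.08 TPM in SCADD replicates 1, 2 and 3 and 3.22, 3.68 and 3.74 TPM in WT replicates 1, 2 and 3, still without overlap. The Hlf call held under 13 of 16 alternatives and was lost on leaving out WT replicate 1 (adjusted p = 0.0939), WT replicate 2 (0.124) or SCADD replicate 2 (0.0576), over a range of adjusted p of 0.000122 to 0.124.

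Single livers were ordered alike by many of the members: the 2 livers most often at the high end of the day and dusk members were 1 of each group. SCADD replicate 2 was the highest of the 6 livers for 4 of the 6 day and dusk members (Nr1d1, Dbp, Hlf and Per3) and among the 2 highest for 5 of them. WT replicate 3 was likewise among the 2 highest for 5 of the 6. WT replicate 1 was the lowest for 4 of them (Nr1d1, Hlf, Per1 and Per2) and WT replicate 2 for the other 2 (Dbp and Per3). The next lowest liver was a SCADD liver for 5 of these 6 members, replicate 1 for Dbp, Per2 and Per3 and replicate 3 for Nr1d1 and Per1. Of the 4 night members, WT replicate 1 was the highest for 3 (Arntl, Npas2 and Cry1). Both SCADD replicate 2 and WT replicate 3 were among the 2 lowest for 3 of the 4. The Npas2 order, which enters these counts for WT replicate 1 and SCADD replicate 2, rests on 1 to 16 counts a library.

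**Figure D3:**
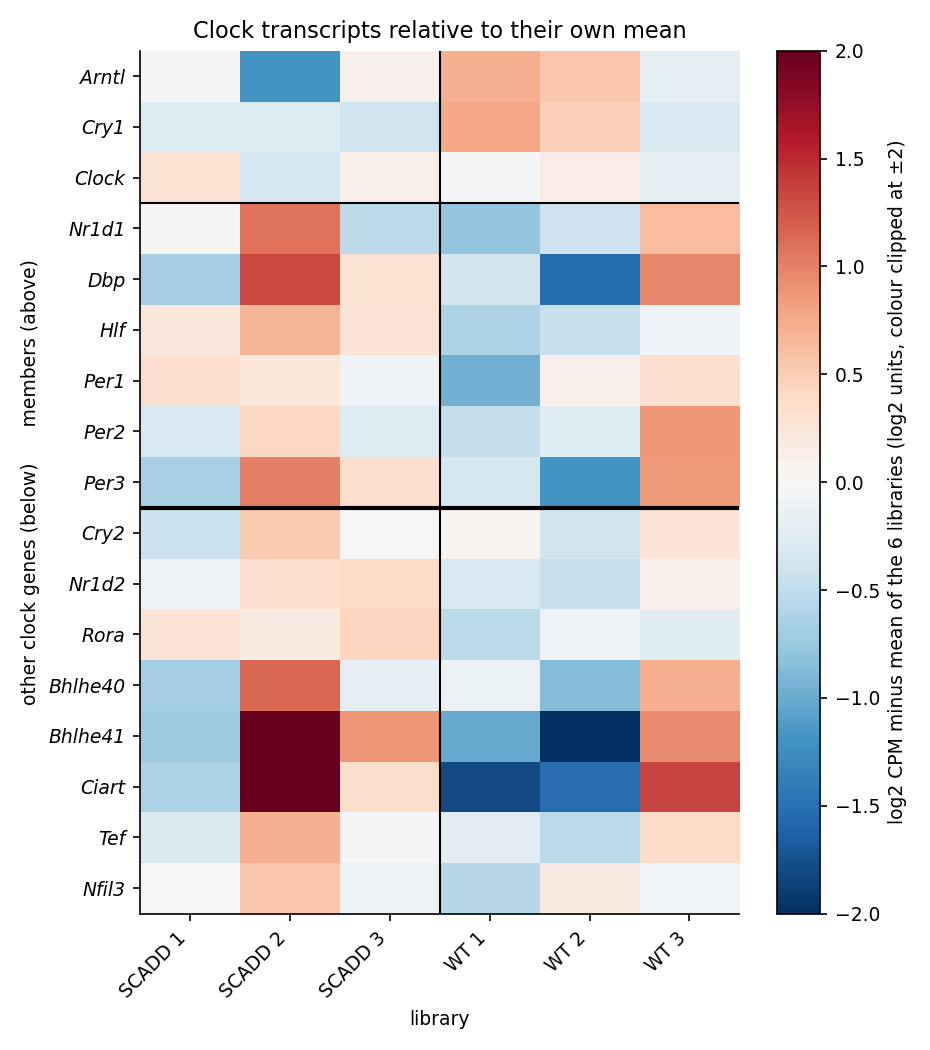
Log2 CPM of each gene minus its mean over the 6 livers, members above the thick line (night members first) and other clock genes below, SCADD libraries left and WT libraries right. SCADD 2 and WT 3 are red for Nr1d1, Dbp, Per2, Per3, Bhlhe40, Bhlhe41, Ciart and Tef, and blue for Arntl, while WT 1 and WT 2 are mostly the reverse.

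The ratio of Dbp to Arntl in a liver gave the widest view of this order. On the log2 scale of CPM it was 1.48, 4.68 and 2.38 in SCADD replicates 1, 2 and 3, and 1.07, 0.066 and 3.31 in WT replicates 1, 2 and 3. The ratio spanned 3.20 log2 units within SCADD and 3.25 within WT, beside a difference of 1.36 between the group means, SCADD minus WT. For Nr1d1 to Arntl the log2 ratio was 2.21, 4.47 and 1.59 in SCADD replicates 1, 2 and 3, and 0.69, 1.22 and 3.01 in WT replicates 1, 2 and 3, and the groups overlapped again.

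Over all 24 ratios of a day or dusk member to a night member, 22 overlapped between the groups, and for 21 the range within WT was wider than the difference between the group means. The 2 that did not overlap both had Hlf on top. The log2 ratio of Hlf to Cry1 in CPM was 3.41, 3.85 and 3.56 in SCADD replicates 1, 2 and 3, and 1.51, 1.98 and 3.13 in WT replicates 1, 2 and 3. In TPM the groups overlapped for Hlf to Cry1. SCADD replicate 1, with Hlf at 5.79 and Cry1 at 1.33 TPM, had a lower ratio than WT replicate 3, with 3.74 and 0.70 TPM. For Hlf to Arntl it was 2.56, 4.22 and 2.52 in SCADD and 1.02, 1.35 and 2.47 in WT replicates 1, 2 and 3, apart by a small margin. The difference, SCADD minus WT, was positive for every ratio except Per2 to Clock (-0.14 log2 units). The ratios share members and are not independent, and those with Npas2 rest on 1 to 16 counts a library. All are given as descriptions, with no test.

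**Figure D4:**
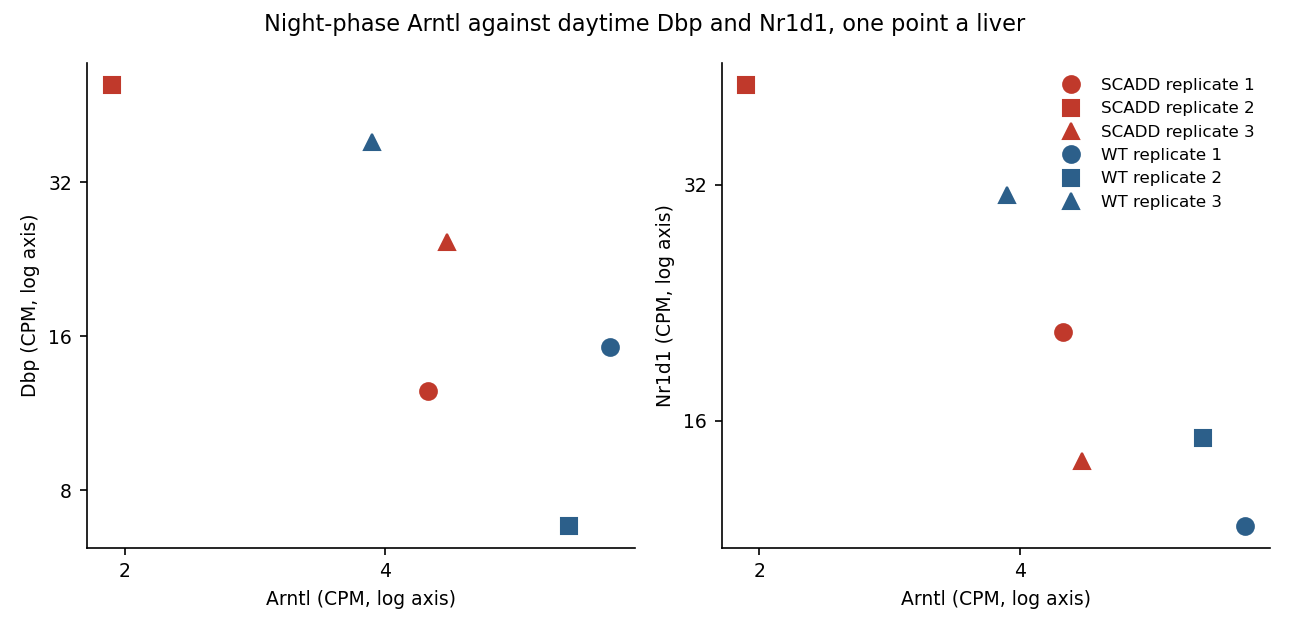
Arntl against Dbp (left panel) and against Nr1d1 (right panel) in CPM on log axes, 1 point a liver, SCADD in red and WT in blue. SCADD replicate 2 (Arntl 1.93, Dbp 49.6 CPM) and WT replicates 1 and 2 (Arntl 7.26 and 6.51, Dbp 15.3 and 6.81 CPM) lie at opposite corners, with the other livers of both groups between them.

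Within groups, Dbp, Per3 and Nr1d1 varied more than most genes of the liver. The pooled SD of log2 CPM within groups was 1.13 for Dbp, 0.93 for Per3 and 0.77 for Nr1d1, at percentiles 99.4, 98.6 and 97.2 of all tested genes, whose median was 0.24. Arntl followed with 0.61 (percentile 93.6), Per2 with 0.58 (92.4) and Per1 with 0.51 (89.0). Clock and Hlf stood near the middle, with 0.26 each, at percentiles 56.9 and 56.5. Cry1 differed between the groups in this respect, with an SD of 0.069 in SCADD and 0.56 in WT livers, a difference that was not tested. In TPM the SCADD livers were less even, at 1.33, 0.85 and 0.56 TPM in replicates 1, 2 and 3, against 1.79, 1.21 and 0.70 TPM in WT replicates 1, 2 and 3.

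The other components of the clock also gave 1 call. Of 7 other transcriptional clock genes tested, 1 rose and 0 fell, and 2 had an unadjusted p under 0.05, beside 7.02% and 22.7% of all tested genes. Rora, the activator that competes with NR1D1 for its sites, had 77.6, 72.5 and 86.1 CPM in SCADD replicates 1, 2 and 3, against 44.2, 60.3 and 54.1 CPM in WT replicates 1, 2 and 3. The groups did not overlap for Rora, and its fold change was 0.58 on the log2 scale (SE 0.15; edgeR adjusted p = 0.0415). The call of Rora was lost with upper-quartile scaling (adjusted p = 0.0533) and without WT replicate 1 (0.141), WT replicate 2 (0.0693), WT replicate 3 (0.122) or SCADD replicate 1 (0.133).

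Ciart and Bhlhe41, both E-box-driven repressors of the clock, moved over single livers more than any member that was tested. Ciart had 0.408, 3.02 and 0.806 CPM in SCADD replicates 1, 2 and 3, and 0.181, 0.218 and 1.61 CPM in WT replicates 1, 2 and 3, a 16.7-fold range over the 6 livers. Bhlhe41 had 1.18, 8.15 and 3.59 CPM in SCADD and 0.976, 0.437 and 3.75 CPM in WT replicates 1, 2 and 3, an 18.7-fold range. SCADD replicate 2 was the highest liver for both genes, and neither passed the test (edgeR adjusted p = 0.618 for Ciart and 0.493 for Bhlhe41). Nr1d2, the paralog of Nr1d1, had a fold change of 0.42 on the log2 scale (SE 0.18; edgeR adjusted p = 0.186), Cry2, the paralog of Cry1, 0.077 (adjusted p = 0.895) and Bhlhe40 0.25 (0.858).

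Tef, the PAR bZIP relative of Dbp and Hlf, had 53.1, 106 and 63.0 CPM in SCADD replicates 1, 2 and 3, and 56.1, 44.9 and 84.5 CPM in WT replicates 1, 2 and 3. SCADD replicate 2 and WT replicate 3 were the highest livers, and the fold change was 0.26 on the log2 scale (SE 0.31; edgeR adjusted p = 0.673). Nfil3, the repressor that binds the same D-box sites, had a fold change of 0.30 on the log2 scale (SE 0.22; adjusted p = 0.468). Of 6 genes for kinases and ubiquitin ligases that set the stability of PER and CRY proteins, 0 were called by edgeR, DESeq2 or limma-voom, and 1 had an unadjusted p under 0.05. Beside these stand 7.02% and 22.7% of all tested genes by edgeR. That gene, Fbxw11, an F-box protein acting on PER, had a fold change of 0.33 on the log2 scale (SE 0.12; edgeR adjusted p = 0.125), with 25.8 to 29.1 CPM in SCADD and 21.4 to 22.7 CPM in WT livers. Csnk1e was also apart, at 2.97 to 3.58 CPM in SCADD and 1.92 to 2.89 CPM in WT livers (edgeR adjusted p = 0.320). The groups did not overlap for 2 of these 6 genes, beside 28.0% of all tested genes.

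Among 5 listed liver targets of the PAR bZIP factors, 3 rose and 0 fell in SCADD livers, beside 4.22% of all tested genes that rose and 2.80% that fell. The list was chosen with earlier results of these data known, so this count is a description and not a test of the targets. A part of Hlf in these values was not tested. Alas1, the rate-limiting enzyme of hepatic heme synthesis, had 285, 293 and 281 CPM in SCADD replicates 1, 2 and 3, and 170, 122 and 114 CPM in WT replicates 1, 2 and 3. Each SCADD liver was above each WT liver; the SCADD livers were close to each other in CPM and less so in TPM, at 272, 290 and 188 TPM in replicates 1, 2 and 3. The fold change was 1.08 on the log2 scale (SE 0.17; edgeR adjusted p = 0.00499), and the call held under all 16 alternatives.

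Nr1i3, which encodes the xenobiotic receptor CAR, had 315, 369 and 325 CPM in SCADD replicates 1, 2 and 3, and 145, 171 and 199 CPM in WT replicates 1, 2 and 3. The groups were apart, with a fold change of 0.97 on the log2 scale (SE 0.16; edgeR adjusted p = 0.00617), and this call also held under all 16 alternatives. Por, the reductase that supplies electrons to microsomal cytochromes P450, had 115, 120 and 109 CPM in SCADD replicates 1, 2 and 3, against 73.7, 64.2 and 87.1 CPM in WT replicates 1, 2 and 3. Its fold change was 0.61 on the log2 scale (SE 0.15; edgeR adjusted p = 0.0302), and the call was lost without WT replicate 1 (adjusted p = 0.0935), WT replicate 2 (0.149) or SCADD replicate 1 (0.112).

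The other listed targets did not pass. Cyp2b10, a CAR-inducible P450, had 11.0, 19.8 and 9.30 CPM in SCADD replicates 1, 2 and 3 and 11.9, 31.3 and 28.7 CPM in WT replicates 1, 2 and 3 (log2 fold change -0.83, SE 0.44, edgeR adjusted p = 0.326). Without WT replicate 1 it was called lower, at a log2 fold change of -1.17 (adjusted p = 0.0458). Cyp2a5, a coumarin hydroxylase under DBP control, had 69.9, 547 and 141 CPM in SCADD replicates 1, 2 and 3 and 168, 198 and 342 CPM in WT replicates 1, 2 and 3. SCADD replicate 2 and WT replicate 3, the livers with the most Dbp, had the most Cyp2a5, and the fold change was 0.098 on the log2 scale (SE 0.78; adjusted p = 0.962). Cyp2a5 has close paralogs that can share its reads, so its value is uncertain.

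**Figure D5:**
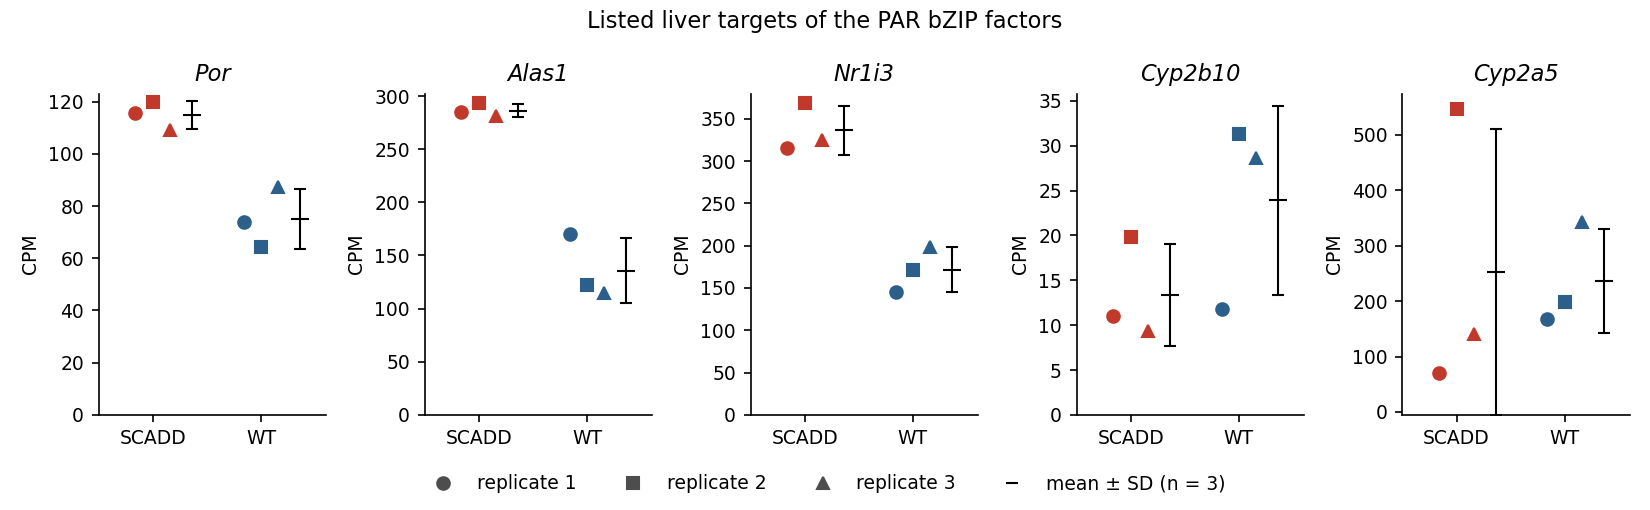
CPM of the 5 listed liver targets of the PAR bZIP factors in single livers, SCADD left and WT right, with the group mean ± SD beside the points. Por, Alas1 and Nr1i3 are higher in each SCADD liver than in any WT liver, while Cyp2b10 and Cyp2a5 overlap; the SD bar of Cyp2a5 in SCADD extends below 0 because 1 liver stood at 547 CPM.

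Of 11 rhythmic liver output genes, which include Por, Alas1 and Cyp2a5, 2 rose and 0 fell, beside 7.02% of all tested genes called. An unadjusted p under 0.05 was found for 4 of the 11, beside 22.7% of all tested genes, and the median log2 fold change of the 11 was 0.46, beside -0.00079 over all tested genes. Wee1, the E-box-driven mitotic kinase, had 3.06, 10.4 and 6.51 CPM in SCADD replicates 1, 2 and 3, and 1.45, 0.917 and 3.11 CPM in WT replicates 1, 2 and 3. Its groups overlapped by WT replicate 3 and SCADD replicate 1, and its fold change was 1.84 on the log2 scale (SE 0.55; edgeR adjusted p = 0.0977); DESeq2 called it higher. Usp2, a rhythmic ubiquitin protease, had 3.42, 9.43 and 5.45 CPM in SCADD and 0.687, 1.31 and 3.56 CPM in WT replicates 1, 2 and 3 (log2 fold change 1.71, SE 0.62, adjusted p = 0.166). Without WT replicate 3 the number of output genes called higher was 4, with Usp2 and Wee1 added, and without WT replicate 1 or 2 it was 1, Alas1.

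Several outputs spread widely within the SCADD group. Elovl3, a fatty acid elongase with a strong daily rhythm in male liver, had 167, 36.7 and 141 CPM in SCADD replicates 1, 2 and 3, and 75.0, 55.7 and 61.5 CPM in WT replicates 1, 2 and 3. SCADD replicate 2 was the lowest liver of all for Elovl3. Rgs16, a regulator of G protein signalling, had 4.81, 26.3 and 6.07 CPM in SCADD and 17.7, 55.0 and 39.5 CPM in WT replicates 1, 2 and 3. Neither passed the test, with fold changes of 0.84 on the log2 scale (SE 0.54; edgeR adjusted p = 0.431) for Elovl3 and -1.59 (SE 0.77, adjusted p = 0.297) for Rgs16. Without SCADD replicate 2, Elovl3 was called higher, at 1.26 on the log2 scale (adjusted p = 0.000848). Nampt, the salvage enzyme of NAD synthesis, had a log2 fold change of 0.26 (adjusted p = 0.383), Noct 0.23 (0.713), Upp2 0.46 (0.621) and Lonrf3 0.087 (0.924).

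Taking the 28 other clock and output genes together, each counted once, 4 rose (Rora, Por, Alas1 and Nr1i3) and 0 fell, or 14.3% beside 7.02% of all tested genes. Because the lists were chosen with earlier results of these data known, these counts are descriptions. The median log2 fold change of the 28 genes was 0.32, and 24 of 28 were positive. The number with an unadjusted p under 0.05 was 8 of 28, beside 22.7% of all tested genes, and the groups did not overlap for 6 of 28, beside 28.0%.

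Hormonal and temperature cues that reach the clock were read from 12 glucocorticoid- and heat-responsive genes, of which 0 rose and 1 fell, or 8.33% called beside 7.02% of all tested genes. Fkbp5, a glucocorticoid receptor target, had 59.5, 56.3 and 32.0 CPM in SCADD replicates 1, 2 and 3, and 11.9, 71.1 and 64.5 CPM in WT replicates 1, 2 and 3. WT replicate 1, the liver with the least Per1, also had the least Fkbp5 and, at 2.71 CPM, the least Zbtb16, another glucocorticoid target. Zbtb16 was at 16.7, 23.0 and 3.41 CPM in SCADD replicates 1, 2 and 3 and at 22.8 and 20.7 CPM in WT replicates 2 and 3. Tat was also lowest in WT replicate 1, at 588 CPM beside 645 to 1393 CPM in the other livers. Sgk1 went the other way and was highest there, at 21.4 CPM beside 8.21 to 19.8 CPM in the other livers. Tsc22d3, at 101 CPM in WT replicate 1, was above each SCADD liver and below the other WT livers. The part of this cue in the Per1 values was not tested.

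The gene that fell was Hspa1a, an inducible heat shock chaperone, with 6, 0 and 1 counts in SCADD replicates 1, 2 and 3 and 16, 35 and 41 counts in WT replicates 1, 2 and 3 (log2 fold change -3.37, SE 0.70, edgeR adjusted p = 0.0166). It shares reads with the near-identical Hspa1b, so its value is uncertain, and its call was lost with RSEM expected counts (adjusted p = 0.0868) and without WT replicate 2 (0.0748) or WT replicate 3 (0.0608). Hspa1b had 20.7, 5.89 and 6.38 CPM in SCADD and 15.0, 32.3 and 60.5 CPM in WT replicates 1, 2 and 3, and did not pass (log2 fold change -1.69, SE 0.71, adjusted p = 0.235). Tsc22d3, another glucocorticoid target, was lower in each SCADD liver than in any WT liver, with means of 78.1 ± 11.1 CPM in SCADD and 134 ± 53.6 CPM in WT (SD, n = 3 each), but missed edgeR's threshold (fold change -0.78 on the log2 scale, SE 0.25; edgeR adjusted p = 0.0923). DESeq2 called Tsc22d3 lower (adjusted p = 0.0234). Cirbp and Rbm3, which follow low body temperature, had log2 fold changes of -0.062 and 0.041.

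The genes whose pattern over the 6 livers was most like that of Dbp included other clock genes. Likeness was measured as Pearson's r of log2 CPM over 6 libraries, among 10509 genes averaging 1 CPM or more, and is a description, since the points share libraries, depth and scaling and the genes were picked for their r. Per3 had r = 0.995 with Dbp, higher than any of the 10509 genes. By the same measure Bhlhe41 (r = 0.972) would take place 9 and Tef (r = 0.966) place 12, followed by Bhlhe40 (r = 0.948, place 23), Cry2 (r = 0.921, place 51) and Ciart (r = 0.911, place 60). Outside the listed genes, the nearest were Aqp11, an aquaporin (r = 0.992), Dhodh, the pyrimidine synthesis dehydrogenase (r = 0.984), Eif2d, a translation initiation factor (r = 0.981), Tpbgl (r = 0.979) and Chst13, a chondroitin sulfotransferase (r = 0.977).

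Arntl ran the other way. The listed genes nearest to the negative end of its likeness were Nampt (r = -0.947, place 39 from the bottom), Ciart (r = -0.931, place 67), Nr1d1 (r = -0.921, place 93), Hlf (r = -0.890, place 163) and Usp2 (r = -0.885, place 170). The 5 genes most like Arntl were Hacd4 (r = 0.995), Atg10, an autophagy conjugation enzyme (r = 0.977), Srsf3, a splicing factor (r = 0.975), Rnf2, a Polycomb ubiquitin ligase (r = 0.974) and Ipo11, an importin (r = 0.970). Among the tested members, Cry1 (r = 0.693) and Clock (r = 0.664) were the nearest to Arntl. None of the 10 genes nearest to Arntl or Dbp outside the listed genes was called between SCADD and WT livers by edgeR.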

How the data were processed

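Poly(A) RNA from 20 mg of frozen liver of each of 6 mice was sequenced, and the design text calls the animals of a group biological replicates. Per the submitters' processing notes, the tools were STAR 2.7.6a and RSEM 1.3.3 on GRCm38; the annotation release is not given in the sources used here. The authors deposited whole-number STAR counts per gene, not normalised, and RSEM expected counts with TPM, scaled by the authors' RSEM run to 1 total per library; FPKM was not used. Column 4 of the deposited STAR counts was taken because it held 96.8% to 97.3% of stranded reads. Rows that name no gene stayed out: unmapped reads, 10.1% to 13.1% of reads that mapped to several places, 1.47% to 2.17% in no gene and 1.09% to 1.53% ambiguous. Of 55487 gene IDs, 55227 matched GENCODE release M21 (GRCm38), the source of symbols and gene coordinates. All 10 members were found. Promoter sequences and their windows came from a RefSeq table on GRCm38.p6.

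Genes passing edgeR's filterByExpr (minimum count 10) went into edgeR 4.0.16 (R 4.3.3) with TMM scaling (robust quasi-likelihood, group as the only term), with Benjamini-Hochberg adjustment over all tested genes and a threshold of 0.05. Standard errors are approximate, each being the fold change over the root of its F statistic. Log2 CPM for the spread and likeness used a prior count of 0.5. The step was tested on simulated data. Replicate pairs differed by more than sampling noise (chi-square per degree of freedom 32.8 to 121). DESeq2 1.42.0, limma-voom (limma 3.58.1) and the other settings of the closing section were alternatives; expected counts were rounded for theirs. The members, gene lists and tests were chosen with earlier results of these data known. The genes named are the members, the genes of the lists, and the 5 genes nearest in pattern to Arntl and to Dbp with a mean of at least 1 CPM, leaving out members and predicted, clone or pseudogene names. Values of some listed genes are not reported here, though the counts over their lists include them.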

Additional observations from a re-analysis of the deposited data

How the results depend on the processing

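The counts of genes called and the fold changes of the tested members were recomputed under 16 alternatives, and the 24 ratios in TPM only. Ranks, the spread within groups, likeness and marker sums were not recomputed. With 3 livers a group and unknown times of collection, these values cannot separate a difference in rhythm from one in level. Leaving out 1 library moved the number of genes called, 569 higher and 378 lower with all libraries, to between 240 and 909 higher and between 155 and 681 lower. It moved the members called higher to between 0 and 1, the other clock genes called higher to between 0 and 1, the output genes called higher to between 1 and 4, the PAR bZIP targets called lower to between 0 and 1 and the glucocorticoid and heat genes called lower to between 0 and 2. Over the same omissions the log2 fold change ran from -0.90 to -0.36 for Arntl, -0.098 to 0.22 for Clock (-0.013 without WT replicate 3), -0.042 to 0.54 for Per1, -0.46 to 0.35 for Per2, -0.14 to 1.07 for Per3, -0.15 to 0.95 for Nr1d1, -0.15 to 1.38 for Dbp and 0.60 to 0.94 for Hlf. Without a filter 950 genes were higher and 752 lower, 1 member was called lower (Arntl, -0.67), and 2 glucocorticoid and heat genes fell; DESeq2 also called 2 of them lower, while 0 fell with a filter of 1 CPM, with RSEM expected counts or with unstranded counts. Upper-quartile scaling left 0 other clock genes higher and turned the split over all genes to 470 higher and 482 lower. In TPM the difference between group means moved by less than the spread between replicates for all 24 ratios. Their overlap between groups was not recounted in TPM, where Hlf to Cry1 no longer kept the groups apart. The cause of these changes was not tested. Whether the replicate numbers pair the livers was not settled. Same-numbered deviations correlated weakly, at 0.060, 0.042 and 0.11. These were the highest values for each SCADD library, but WT replicate 2 correlated best with SCADD replicate 1 (0.054). A fit with the replicate number as a block called 668 genes higher and 480 lower, and kept Hlf as the 1 member called (log2 fold change 0.77). That fit called 3 output genes higher, with Usp2 added (1.84 on the log2 scale), and called 1, Rgs16, lower.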
